A study of Mus musculus with 9 samples.

Results

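The Gimap genes encode GTPases of the immunity-associated protein family. The 8 mouse members, Gimap1, Gimap3, Gimap4, Gimap5, Gimap6, Gimap7, Gimap8 and Gimap9, were taken by gene symbol from the table of FPKM per gene and library (sequenced fragments, divided by transcript length and by the mapped fragments of the library), in which they were 8 of 23849 named entries. Each symbol was found as a single entry, and all 8 passed the filter on low values used for testing, which asked for a mean FPKM of 1 or more across the 9 libraries. RNA was sequenced from mouse CD4+ T cells with the naive phenotype, sorted by surface markers that include low CD44 and then kept for 24 h with antibodies against CD3 and CD28, which stimulate the T cell receptor and its costimulatory partner. There were 3 libraries from Fosl2 Tg cells, which overexpress Fosl2 and for which the labels name no promoter, 3 labelled Fosl2 Ko with the genotype Fosl2fl/fl CD4-cre+, in which Cre is driven by Cd4 sequences, and 3 Control libraries with the genotype wt, for which no floxed allele and no Cre is named. Fosl2 encodes a transcription factor of the AP-1 family. Every group was stimulated, so the data hold no resting cells, and no label states if replicate libraries stem from different animals. The p-values therefore reflect variation among the libraries at hand, part of which could be technical.

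GIMAP proteins share a GTP-binding domain and many of them sit in the membranes of intracellular organelles. In mammals they are found mainly in lymphocytes, and rats and mice that lack Gimap5 lose peripheral T cells. Several members have been tied to the survival or death of T cells, to lysosomes or to autophagy.

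Fosl2, the targeted gene, was checked first because the direction of every comparison depends on it. Its FPKM was 30.9, 19.2 and 24.5 in the Fosl2 Tg libraries, 19.2, 17.8 and 17.1 in the libraries labelled Fosl2 Ko and 7.77, 7.44 and 6.15 in Control. Both other groups lay above Control, by a log2 difference of 1.65 ± 0.15 in Fosl2 Tg (SE, limma adjusted p = 0.000749) and by 1.23 ± 0.15 in labelled Fosl2 Ko (SE, limma adjusted p = 0.00404). The FPKM of the gene goes against the Ko label, although a value per gene cannot show whether a floxed exon was missing from these transcripts. Below, "labelled Fosl2 Ko" refers to libraries with a higher total Fosl2 FPKM than Control. Depth, estimated from the lowest FPKM values, was 31.8 to 57.2 M fragments per library (M, mega). Fosl2 Tg library 1 had the highest Fosl2 and stood above the other Fosl2 Tg libraries in every Gimap gene, so each Fosl2 Tg ratio is given with and without it.

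The Gimap genes lie side by side on chromosome 6 (build mm10). In order along the chromosome they are Gimap8 (48647234 to 48660875, plus strand), Gimap9 (48676135 to 48678704, plus), Gimap4 (48684578 to 48692062, plus), Gimap6 (48701583 to 48708244, minus), Gimap7 (48718621 to 48724636, plus), Gimap1 (48739047 to 48743795, plus), Gimap5 (48746197 to 48754200, plus) and Gimap3 (48764464 to 48770851, minus). Because the genes are neighbours and differed in the same direction (the values follow the sequences), their promoters were read for binding motifs. Promoter windows came from RefSeq (GRCm38.p6, the same assembly as mm10) and cover 250 bases before and 50 bases after the annotated start. RefSeq gave 9 windows for the 8 genes, with 2 overlapping windows for Gimap8. The windows below are those of Gimap4, the member with the largest FPKM ratio of Fosl2 Tg to Control, and of Gimap9, Gimap1 and Gimap5, the 3 genes with a match to the ETS motif. They read 5′ to 3′ on the strand of the gene, and capitals mark AGGAAGT or its reverse complement ACTTCCT.
Gimap4, chr6:48684328-48684627, plus strand: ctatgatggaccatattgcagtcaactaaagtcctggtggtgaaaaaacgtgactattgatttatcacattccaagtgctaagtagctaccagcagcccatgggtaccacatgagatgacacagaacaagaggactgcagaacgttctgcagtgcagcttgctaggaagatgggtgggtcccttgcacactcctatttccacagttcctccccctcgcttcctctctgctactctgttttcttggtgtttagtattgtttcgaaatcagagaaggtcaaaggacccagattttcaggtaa
Gimap9, chr6:48675885-48676184, plus strand: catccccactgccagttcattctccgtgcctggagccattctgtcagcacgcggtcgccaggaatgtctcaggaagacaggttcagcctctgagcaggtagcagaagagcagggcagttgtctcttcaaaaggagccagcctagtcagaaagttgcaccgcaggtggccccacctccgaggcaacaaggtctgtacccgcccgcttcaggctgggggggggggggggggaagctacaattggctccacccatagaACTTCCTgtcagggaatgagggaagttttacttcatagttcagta
Gimap1, chr6:48738797-48739096, plus strand: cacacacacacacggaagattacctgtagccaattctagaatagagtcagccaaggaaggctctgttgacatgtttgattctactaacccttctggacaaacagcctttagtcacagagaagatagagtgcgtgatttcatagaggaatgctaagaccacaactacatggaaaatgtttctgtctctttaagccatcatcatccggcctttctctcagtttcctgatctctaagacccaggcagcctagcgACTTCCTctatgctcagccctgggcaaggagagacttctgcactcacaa
Gimap5, chr6:48745947-48746246, plus strand: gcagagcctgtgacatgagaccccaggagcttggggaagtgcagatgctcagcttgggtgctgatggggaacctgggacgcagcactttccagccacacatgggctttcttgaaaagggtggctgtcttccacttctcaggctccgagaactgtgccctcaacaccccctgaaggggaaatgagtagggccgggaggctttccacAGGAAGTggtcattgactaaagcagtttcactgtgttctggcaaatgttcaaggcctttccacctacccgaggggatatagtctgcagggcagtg

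The AP-1 motif TGANTCA, the letters that FOS and JUN family dimers are known to bind, was in 0 of the 9 Gimap windows and in 7.81% of all 32851 mouse promoter windows of the same length. The related ATF/CRE motif TGACGTCA was also in 0 of 9, against 1.79% of all windows. At shares this low among all windows, 9 windows are too few for 0 to show a lack of either motif. Neither result speaks about binding outside these windows or through other letters. The ETS motif AGGAAGT, bound by a large family of factors active in lymphocytes, was in 3 of 9 windows and in 9.35% of all windows. Several motifs were read in these few windows, so 3 of 9 cannot show an excess, and only these exact letters were counted. In Gimap9 and Gimap1 it lies just past the annotated start and in Gimap5 upstream of it. The KLF motif CCNCNCCC was in 5 of 9 windows (both of Gimap8, and those of Gimap9, Gimap4 and Gimap7), close to its share of 49.5% of all windows. The FOXO motif GTAAACA was in 1 of 9 windows, that of Gimap3, against 3.65% of all, and the RUNX motif TGTGGTT (5.27% of all) and the TCF/LEF motif CTTTGAT (3.73% of all) were in 0 of 9. For RUNX and TCF/LEF, too, 0 of 9 cannot show a lack of the motif, and for FOXO 1 of 9 cannot show an excess. All motifs were searched on both strands.

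Levels differed widely within the family. In Control, the order of mean FPKM per gene was Gimap3, Gimap6, Gimap4, Gimap1, Gimap9, Gimap8, Gimap5 and Gimap7, with 132 at the top and 6.0 at the bottom. In the labelled Fosl2 Ko libraries the order was the same, and in Fosl2 Tg only Gimap9 and Gimap1 changed places. Neighbours whose ranges over the 3 libraries overlapped were Gimap3 and Gimap6, Gimap6 and Gimap4, Gimap4 and Gimap9, and Gimap9 and Gimap1 in Fosl2 Tg. In the labelled Fosl2 Ko libraries these were Gimap4 and Gimap1, and Gimap8 and Gimap5, and in Control Gimap6 and Gimap4, Gimap4 and Gimap1, and Gimap8 and Gimap5. Gimap3 exceeded 94.4% of the 10340 tested genes in mean FPKM, while Gimap7 exceeded 29.0%. Estimated fragments per library fell between 117 for Gimap7 and 31713 for Gimap6, so counting error, relative to the level, is largest for Gimap7.

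**Figure D1:**
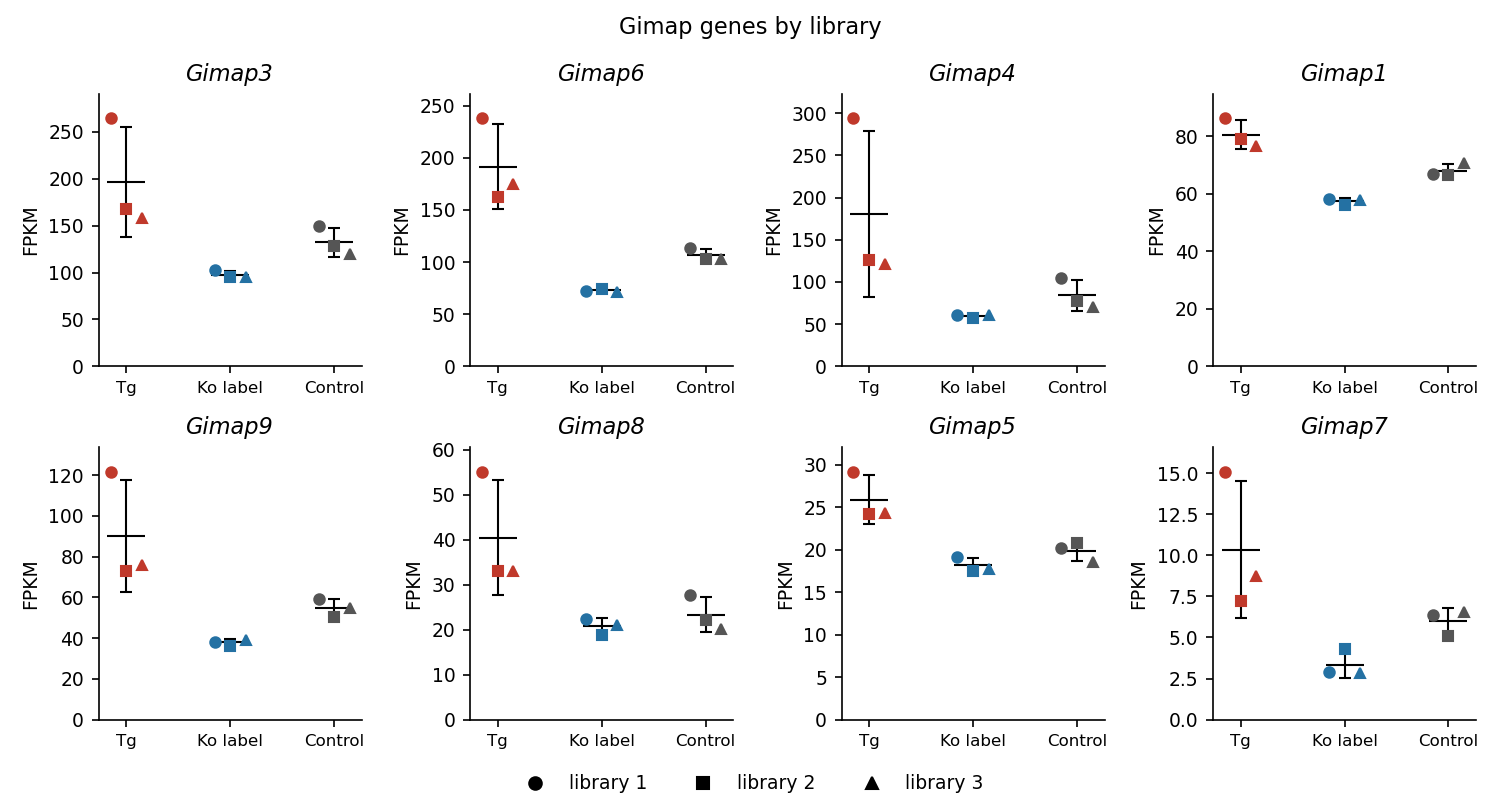
FPKM of each Gimap gene (linear axis from 0, a separate scale per gene) in 3 Fosl2 Tg libraries, 3 libraries labelled Fosl2 Ko and 3 Control libraries. Points are libraries, with the shape giving the library number, and horizontal lines with bars give the mean and SD; every Fosl2 Tg point lies above every Control point of the same gene, and Fosl2 Tg library 1 is the highest in each panel.

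Gimap5 and Gimap3 are close relatives. Gimap5 is a lysosomal protein needed for the survival of mouse T cells and linked there to the kinase GSK3, and Gimap3 can bind BCL2 family proteins in mouse T cells. Gimap5 had an FPKM of 29.2, 24.2 and 24.3 in Fosl2 Tg, 19.2, 17.5 and 17.7 in the labelled Fosl2 Ko libraries and 20.3, 20.8 and 18.6 in Control. All Fosl2 Tg libraries were above all others, and the labelled Fosl2 Ko range overlapped that of Control. Gimap5 rose in Fosl2 Tg by a log2 difference of 0.36 ± 0.08 from Control (SE, limma adjusted p = 0.0169), a ratio of mean FPKM of 1.30, or 1.22 without Fosl2 Tg library 1. Gimap3 had 264, 167 and 158 FPKM in Fosl2 Tg, 102, 95.7 and 95.2 in the labelled Fosl2 Ko libraries and 149, 128 and 119 in Control. Its groups did not overlap, yet the difference of 0.54 ± 0.18 between Fosl2 Tg and Control missed the threshold (limma adjusted p = 0.0619), with a ratio of 1.49, or 1.23 without Fosl2 Tg library 1. Of the distinct 50-base stretches of their annotated transcripts, 7.52% of those of Gimap3 and 4.53% of those of Gimap5 are shared with other members, mainly with each other, so a few fragments of one could have been counted for the other.

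Gimap1 is needed for the survival of mature lymphocytes in mice, and Gimap4 has been reported to speed the death of mouse T cells. Gimap1 had an FPKM of 86.2, 78.8 and 76.5 in Fosl2 Tg, 58.0, 56.1 and 57.8 in the labelled Fosl2 Ko libraries and 66.8, 66.5 and 70.5 in Control. The 3 groups were fully separate and the libraries of a group lay close together. Gimap1 rose by 0.24 ± 0.05 in Fosl2 Tg against Control (log2, SE, limma adjusted p = 0.018; ratio 1.18, or 1.14 without Fosl2 Tg library 1), the smallest difference of the family in this comparison. Of its 50-base stretches, 35.5% also occur in other annotated transcripts, mostly the antisense gene Gimap1os, and its exons overlap those of Gm28053. Whether the authors counted fragments by strand is not given in the sources used here, so the Gimap1 value is uncertain. Gimap4 had 294, 126 and 122 FPKM in Fosl2 Tg, 61.3, 57.1 and 60.6 in the labelled Fosl2 Ko libraries and 105, 77.6 and 70.0 in Control. Fosl2 Tg library 1 was far above the other libraries of its group. Gimap4 had the largest difference from Control, 0.99 ± 0.31 in Fosl2 Tg, but also the largest spread, and did not pass (limma adjusted p = 0.0526; ratio 2.15). Without Fosl2 Tg library 1 the difference was smaller, at 0.575, and passed (limma adjusted p = 0.0318; ratio 1.47).

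Gimap6 binds the autophagy protein GABARAPL2. Its FPKM was 238, 162 and 175 in Fosl2 Tg, 72.6, 74.6 and 71.7 in the labelled Fosl2 Ko libraries and 113, 103 and 103 in Control. The groups were well apart. The rise of 0.82 ± 0.13 in Fosl2 Tg against Control (log2, SE, limma adjusted p = 0.00444; ratio 1.80, or 1.58 without Fosl2 Tg library 1) passed under each of the 16 alternative settings, with limma adjusted p between 0.000753 and 0.029. It was the one member of which this held in that comparison.

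Gimap8 is the largest member, with several GTP-binding domains, and human GIMAP7 has been shown to form dimers that stimulate GTP hydrolysis. Gimap8 had 55.2, 33.1 and 33.0 FPKM in Fosl2 Tg, 22.4, 18.9 and 21.0 in the labelled Fosl2 Ko libraries and 27.8, 22.2 and 20.1 in Control. Fosl2 Tg was above both other groups, which overlapped. Gimap8 rose by 0.74 ± 0.20 in Fosl2 Tg against Control (log2, SE, limma adjusted p = 0.0333; ratio 1.73, or 1.42 without Fosl2 Tg library 1). Gimap9 had 122, 72.8 and 76.0 FPKM in Fosl2 Tg, 38.4, 36.1 and 39.1 in the labelled Fosl2 Ko libraries and 59.1, 50.5 and 54.8 in Control. Its 3 groups were separate, and it rose by 0.67 ± 0.17 in Fosl2 Tg against Control (limma adjusted p = 0.0296; ratio 1.65, or 1.36 without Fosl2 Tg library 1). Gimap7, the lowest member, had 15.1, 7.21 and 8.71 FPKM in Fosl2 Tg, 2.91, 4.31 and 2.83 in the labelled Fosl2 Ko libraries and 6.34, 5.10 and 6.57 in Control. Its groups were separate as well, with a difference of 0.64 ± 0.24 between Fosl2 Tg and Control that missed the threshold (limma adjusted p = 0.0821; ratio 1.72, or 1.33 without Fosl2 Tg library 1). Exons of Gimap7 and Gimap5 also overlap annotated exons of Gm28053, a predicted gene that spans them.

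Counted over the family, 5 of 8 members (Gimap1, Gimap5, Gimap6, Gimap8 and Gimap9) rose in Fosl2 Tg against Control and none fell, while 23.6% of all tested genes were called, 8.53% higher and 15.1% lower. That split depends on scaling: it was 882 genes higher and 1558 lower here, 1101 and 1265 with median-of-ratios scaling, and 1426 and 1055 after rescaling without small RNA genes, while all 8 Gimap differences stayed positive. In all 8 the Fosl2 Tg libraries lay above the Control libraries without overlap, which was the case for 18.1% of tested genes, while 27.1% lay below Control without overlap. The median log2 difference was 0.66 over the 8 members and -0.03 over all tested genes, of which the middle 90% lay between -0.50 and 0.46. Without Fosl2 Tg library 1 the median of the members was 0.40, and the middle 90% of all genes then lay between -0.44 and 0.35. The exact permutation test on mean FPKM (two-sided) gave p = 0.1 for every member, the smallest that 3 against 3 libraries allow. Control libraries 2 and 3 mattered for the count: without Control library 2 it was 2 (Gimap5 and Gimap6), with 3.21% of tested genes called higher, and without Control library 3 it was 2 (Gimap1 and Gimap6), with 4.03%. It was 3 without library 1 or library 3 of the labelled Fosl2 Ko group, which enters this comparison only through the shared estimate of spread. In the authors' deposited table, which uses its own normalization, 7 of 8 members were marked significant in this comparison, all except Gimap1 (q = 0.0531782). That table holds only genes significant in some comparison, and it marks 11.2% of the 23849 named entries, low ones included, in this one. In bulk RNA a change in the share of cells that express a gene and a change in its RNA per cell cannot be told apart.

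Against the same Control libraries, the libraries labelled Fosl2 Ko had lower Gimap values, but few differences passed. Gimap1 fell by 0.24 ± 0.05 on the log2 scale (SE, limma adjusted p = 0.0443; ratio 0.843) and was the only one of 8 members called, while 4.46% of tested genes were called, 2.32% lower (240) and 2.14% higher (221), or 171 lower and 285 higher after rescaling without small RNA genes. At an unadjusted p of 0.05, 5 of 8 members and 18.8% of tested genes would pass. The call of Gimap1 was lost under 12 of the 16 alternatives, among them each of the other scalings and the removal of any labelled Fosl2 Ko or Control library. Gimap6 had a log2 difference of -0.54 ± 0.13 (limma adjusted p = 0.0554; ratio 0.686), Gimap9 of -0.52 ± 0.17 (limma adjusted p = 0.154; ratio 0.691) and Gimap7 of -0.70 ± 0.24 (limma adjusted p = 0.165; ratio 0.558). These 3 members, with Gimap1, Gimap3 and Gimap4, had every labelled Fosl2 Ko library below every Control library, a pattern seen in 19.0% of tested genes, while 13.8% lay above Control without overlap. Gimap3 had -0.43 ± 0.18 (limma adjusted p = 0.253) and Gimap4 had -0.47 ± 0.31 (limma adjusted p = 0.487). Gimap8, at -0.15 ± 0.20, and Gimap5, at -0.12 ± 0.08, overlapped with Control and had the smallest differences. The median was -0.45 over the 8 members and -0.01 over all tested genes. The count also changed with Fosl2 Tg library 1, whose spread enters the shared estimate. Without it, 5 members (Gimap1, Gimap3, Gimap6, Gimap7 and Gimap9) were called lower at the same log2 differences, as were 7.21% of tested genes. The authors' deposited table marks 5 of 8 members as significant in this comparison (Gimap9, Gimap4, Gimap6, Gimap7 and Gimap3), and 4.82% of the named entries.

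The contrast between Fosl2 Tg and the labelled Fosl2 Ko libraries was the widest for the Gimap genes, and every member passed, while Fosl2 itself did not (limma adjusted p = 0.0594). All 8 were higher in Fosl2 Tg, where 38.1% of tested genes were called, 17.4% higher and 20.7% lower. The groups did not overlap for any member, against 26.9% of tested genes that lay above and 33.4% that lay below without overlap. Gimap6 differed by 1.36 ± 0.13 (log2, SE, limma adjusted p = 0.000176), a ratio of 2.63, or 2.31 without Fosl2 Tg library 1. Gimap4 differed by 1.45 ± 0.31 (limma adjusted p = 0.00955; ratio 3.02, or 2.08 without that library) and Gimap7 by 1.34 ± 0.24 (limma adjusted p = 0.0046; ratio 3.09, or 2.38). These 3 genes had the largest differences. Gimap9 followed with 1.19 ± 0.17 (ratio 2.38, or 1.96 without that library), then Gimap3 with 0.96 ± 0.18 (ratio 2.01, or 1.66) and Gimap8 with 0.89 ± 0.20 (ratio 1.95, or 1.59), with limma adjusted p of 0.00176, 0.00549 and 0.0111. Gimap1 and Gimap5, which are adjacent on the chromosome, had the smallest, at 0.48 ± 0.05 (limma adjusted p = 0.000443; ratio 1.40, or 1.36 without that library) and 0.49 ± 0.08 (limma adjusted p = 0.00305; ratio 1.43, or 1.34). The median was 1.08 over the members and -0.03 over all tested genes. All 8 calls held under each of the 16 alternatives, and the authors' deposited table marks all 8 as significant, and 14.7% of the named entries. This contrast and the pair above share libraries, so the 3 sets of differences are not independent of each other.

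**Figure D2:**
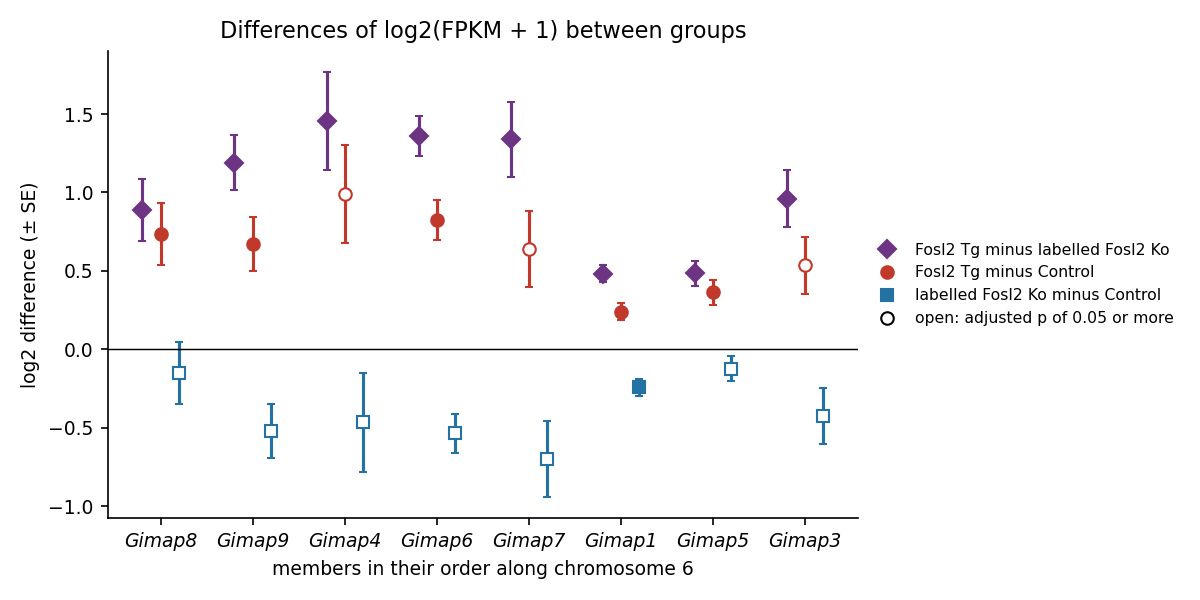
Differences of log2(FPKM + 1) with their standard errors from limma (vertical axis) for the Gimap genes in their order along chromosome 6 (horizontal axis). Filled symbols have a limma adjusted p below 0.05; the Fosl2 Tg differences from the labelled Fosl2 Ko libraries are all filled and above 0, those from Control are above 0 with 5 filled, and those of the labelled Fosl2 Ko libraries from Control are below 0 with only Gimap1 filled.

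The members did not change in proportion. Summed over the family, FPKM was 1104, 671.6 and 673.0 in Fosl2 Tg, 377.2, 360.5 and 365.9 in the labelled Fosl2 Ko libraries and 547.3, 473.6 and 462.6 in Control. The means were 816 ± 249, 368 ± 8.52 and 494.5 ± 46.1 in that order (SD, n = 3 each), and the groups did not overlap. As a share of this sum, Gimap4 took 21.17% on average in Fosl2 Tg (18.1% to 26.6%), 16.23% in the labelled Fosl2 Ko libraries (15.8% to 16.6%) and 16.87% in Control (15.1% to 19.1%). Its Fosl2 Tg share overlapped that of Control, and its highest value was that of Fosl2 Tg library 1. Gimap1 took 10.3% in Fosl2 Tg (7.81% to 11.7%), 15.6% in the labelled Fosl2 Ko libraries (15.4% to 15.8%) and 13.8% in Control (12.2% to 15.2%), with no overlap between any pair of groups. Gimap5 took 3.29% in Fosl2 Tg (2.65% to 3.61%), 4.93% in the labelled Fosl2 Ko libraries (4.85% to 5.08%) and 4.03% in Control (3.70% to 4.39%), again without overlap. Gimap6, in contrast, had its highest mean share in Fosl2 Tg, at 23.9% (21.6% to 26.0%), against 19.87% in the labelled Fosl2 Ko libraries (19.3% to 20.7%) and 21.57% in Control (20.7% to 22.2%). The shares of one library add up to a fixed total and so cannot move independently.

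**Figure D3:**
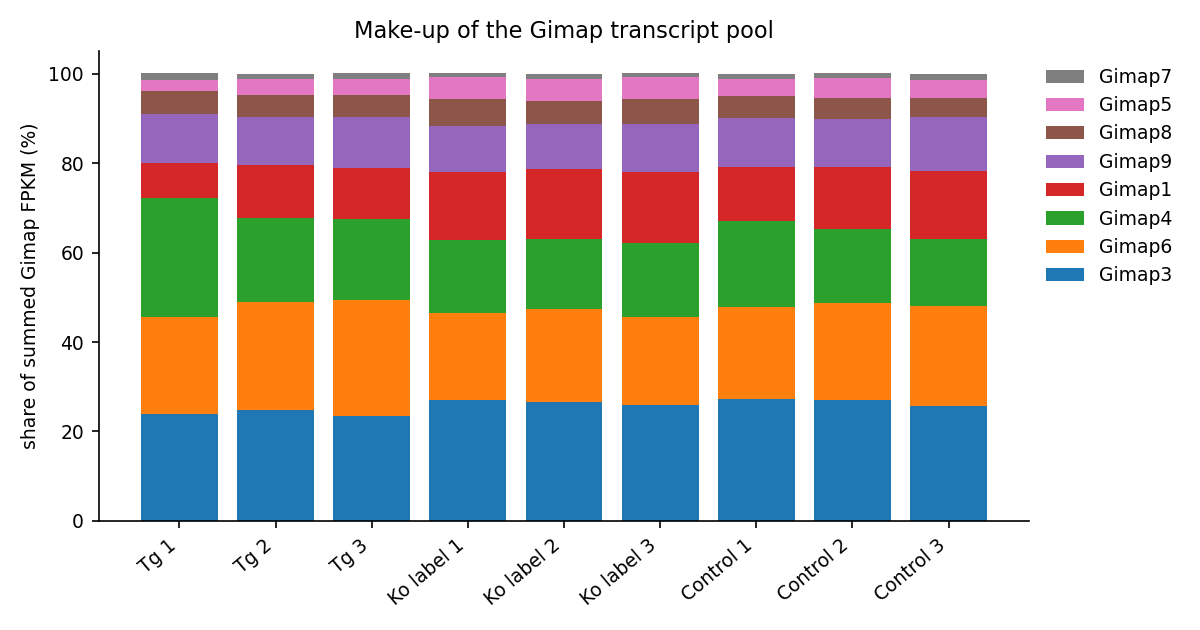
Share of each Gimap gene in the summed FPKM of the 8 genes (percent, vertical axis) in each of the 9 libraries (horizontal axis). The stacked bars each reach the full total; the Gimap1 band is narrower in the 3 Fosl2 Tg libraries (7.81% to 11.7%) than in the libraries labelled Fosl2 Ko (15.4% to 15.8%) and in Control (12.2% to 15.2%), and the Gimap4 band is widest in Fosl2 Tg library 1 (26.6%).

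Across the 9 libraries the members followed each other closely. Pearson's r of log2(FPKM + 1) lay between 0.852 and 0.989 over the 28 pairs of members, with a median of 0.956. The points share 3 groups and their library scaling, so these values are a description. With each member set to a mean of 0 and an SD of 1 over the libraries, the family averaged 1.93, 0.69 and 0.72 in Fosl2 Tg, -0.87, -0.99 and -0.99 in the labelled Fosl2 Ko libraries and 0.07, -0.26 and -0.29 in Control. Fosl2 Tg library 1 had the highest value and the labelled Fosl2 Ko libraries the lowest. Among 9373 other genes, the 5 whose pattern was most like this average were Slfn1 on chromosome 11 (r = 0.997 over 9 libraries), a Schlafen gene tied to T cell quiescence in mice, and Arid5a, Psap, Tbc1d10c and Klhl6 (r = 0.996 each). Arid5a encodes an RNA-binding protein, Psap the precursor of lysosomal saposins, Tbc1d10c an inhibitor of calcineurin, and Klhl6 an adaptor of a ubiquitin ligase. Slfn1 had an FPKM of 122.1, 64.67 and 61.31 in Fosl2 Tg, 27.09, 25.2 and 27.03 in the labelled Fosl2 Ko libraries and 49.39, 39.21 and 38.39 in Control. Klhl6 had 67.81, 39.08 and 42.6 in Fosl2 Tg, 18.7, 18.53 and 19.37 in the labelled Fosl2 Ko libraries and 29.17, 24.62 and 23.99 in Control. In both genes the groups were separate and Fosl2 Tg library 1 was the highest, which largely follows from their being picked for this pattern.

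**Figure D4:**
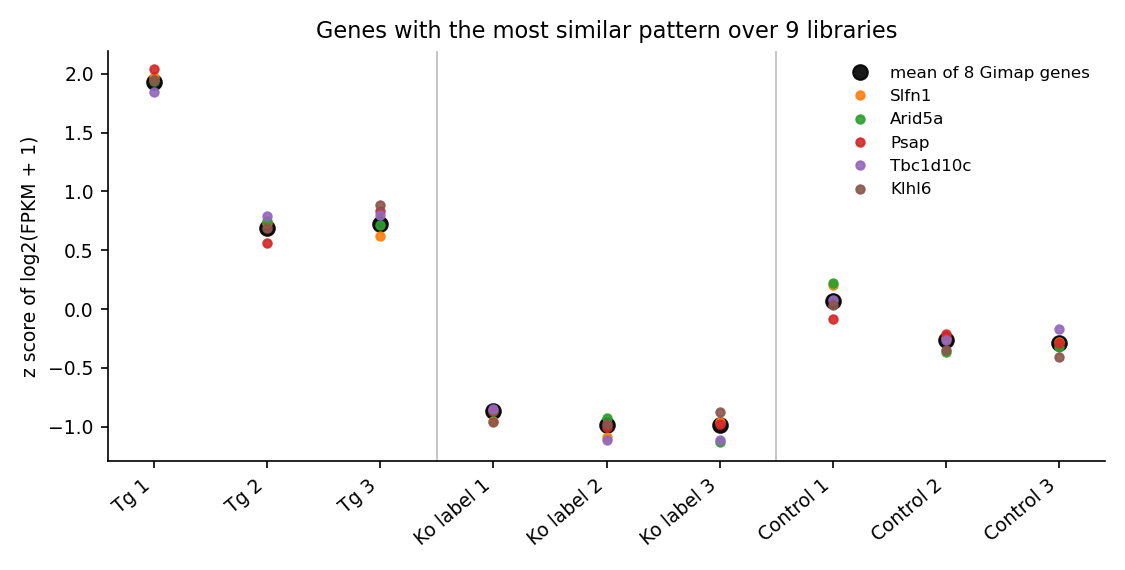
Mean z score of log2(FPKM + 1) of the 8 Gimap genes (black points) and the z scores of the 5 genes with the most similar pattern (coloured points) in the 9 libraries (horizontal axis). Fosl2 Tg library 1 is the highest at 1.93, the other Fosl2 Tg libraries lie near 0.7, Control between -0.29 and 0.07 and the libraries labelled Fosl2 Ko between -0.99 and -0.87.

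The tested genes next to the cluster were not called against Control. Of 10 genes that flank it on chromosome 6, 7 were found in the table and 3 passed the filter. Lrrc61 averaged 5.81 ± 0.528 FPKM in Fosl2 Tg, 5.48 ± 0.151 in the labelled Fosl2 Ko libraries and 5.70 ± 0.423 in Control (SD, n = 3 each), and Zfp775, a zinc finger gene, averaged 1.502 ± 0.0727, 1.365 ± 0.0981 and 1.54 ± 0.022 in the same order of groups. None of the 3 passed against Control in either comparison, by limma at the adjusted threshold or at an unadjusted p of 0.05. Repin1, a zinc finger gene, was lower in Fosl2 Tg than in the labelled Fosl2 Ko libraries (3.32 ± 0.572 against 4.74 ± 0.249 FPKM; log2 -0.42, limma adjusted p = 0.0147), opposite to the Gimap genes, a call that was lost without labelled Fosl2 Ko library 2 (limma adjusted p = 0.0569). The 4 untested neighbours, Atp6v0e2, Rarres2, Tmem176a and Tmem176b, were below 0.5 FPKM in every library.

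Genes of naive and resting T cells were set beside the family because GIMAP proteins are known from such cells. Of 24 tested genes in this list, 7 rose and 0 fell in Fosl2 Tg against Control (median log2 difference 0.45). Over all tested genes 8.53% rose and 15.1% fell. In the labelled Fosl2 Ko libraries 0 rose and 3 fell (median -0.20), against 2.14% and 2.32% of all tested genes. Between Fosl2 Tg and labelled Fosl2 Ko, 15 were higher and 1 lower (median 0.74), against 17.4% and 20.7% of all tested genes. The lower one was Tob2, with a log2 difference of -0.15, a call that was lost when any of 5 libraries was left out. Igfbp4, which encodes an IGF-binding protein, averaged 97.6 ± 7.14 FPKM in Fosl2 Tg, 25.7 ± 2.63 in the labelled Fosl2 Ko libraries and 52.2 ± 1.60 in Control (SD, n = 3 each), and passed in both comparisons with Control. Ccr7, the chemokine receptor that guides naive T cells to lymph nodes, averaged 412.5 ± 6.09 in Fosl2 Tg, 279 ± 9.18 in the labelled Fosl2 Ko libraries and 323 ± 2.42 in Control. It passed in both comparisons as well, but in the labelled Fosl2 Ko libraries the call was lost when any of 8 libraries was left out. Actn1, an actin crosslinker, averaged 132.7 ± 19.8 in Fosl2 Tg, 74.6 ± 3.8 in the labelled Fosl2 Ko libraries and 90.5 ± 5.20 in Control, and rose in Fosl2 Tg. Id3, an inhibitor of E proteins, averaged 157 ± 6.60 in Fosl2 Tg, 87.3 ± 2.65 in the labelled Fosl2 Ko libraries and 158 ± 12.0 in Control, and fell in the labelled Fosl2 Ko libraries against Control (log2 -0.84 ± 0.06, SE, limma adjusted p = 0.000402). The summed FPKM of the list was 3070.1, 2303.1 and 2304.7 in Fosl2 Tg, 1564.8, 1552.4 and 1559.7 in the labelled Fosl2 Ko libraries and 1988.5, 1906.7 and 1845.2 in Control, with Fosl2 Tg library 1 on top as for the Gimap genes. The count of 7 in Fosl2 Tg was 3 without Control library 2 or 3, 4 without any labelled Fosl2 Ko library and 11 without Fosl2 Tg library 2, and the count of 3 in the labelled Fosl2 Ko libraries was 9 without Fosl2 Tg library 1.

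Of 14 tested genes induced by T cell activation, 2 rose and 8 fell in Fosl2 Tg against Control (median -0.40). Over all tested genes 8.53% rose and 15.1% fell. In the labelled Fosl2 Ko libraries 3 rose and 0 fell (median 0.15), against 2.14% and 2.32% of all tested genes. In Fosl2 Tg 3 were higher and 9 lower than in labelled Fosl2 Ko (median -0.70), against 17.4% and 20.7%. Cd83, a surface activation marker, averaged 0.905 ± 0.135 FPKM in Fosl2 Tg, 9.88 ± 1.35 in the labelled Fosl2 Ko libraries and 7.08 ± 0.779 in Control (SD, n = 3 each), a log2 difference of -2.08 ± 0.11 between Fosl2 Tg and Control (SE, limma adjusted p = 4.35e-05). Il2, the T cell growth factor, averaged 62.5 ± 14.4, 113 ± 4.58 and 160 ± 18.9 in the same order and fell in Fosl2 Tg (-1.36 ± 0.16, limma adjusted p = 0.00145). Irf8, a transcription factor, averaged 13.6 ± 2.23, 44.4 ± 3.66 and 22.6 ± 1.74, and Cd44, the activation antigen used in the sort, averaged 13.4 ± 1.22, 29.8 ± 3.07 and 19.4 ± 0.849. Both fell in Fosl2 Tg and rose in the labelled Fosl2 Ko libraries. Tnfrsf9, a costimulatory receptor, averaged 57.7 ± 7.67, 138 ± 7.78 and 71.0 ± 1.1 and rose in the labelled Fosl2 Ko libraries (0.95 ± 0.09, limma adjusted p = 0.00111). The 2 that rose in Fosl2 Tg, as the Gimap genes did, were the transcription factor gene Irf4, with 241 ± 37.9, 124 ± 6.95 and 166 ± 11.7 FPKM in the same order, and the early activation marker Cd69, with 172 ± 4.34, 156 ± 4.51 and 144.5 ± 3.69. The count of 8 lower genes in Fosl2 Tg was 5 without Control library 2 or 3 and that of 2 higher genes was 1 without Control library 3, which loses Irf4 (limma adjusted p = 0.0556). In the labelled Fosl2 Ko libraries, leaving out Fosl2 Tg library 1 gave 6 higher and 2 lower genes. The part that naive and activation genes have in the Gimap differences was not tested.

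Partners and relatives of the family were mixed. Of 12 tested BCL2 family genes, which set the threshold for cell death, 2 rose and 4 fell in Fosl2 Tg against Control. Over all tested genes 8.53% rose and 15.1% fell. In Fosl2 Tg 2 were higher and 5 lower than in labelled Fosl2 Ko, against 17.4% and 20.7% of all tested genes. In the labelled Fosl2 Ko libraries against Control limma called 0, against 4.46% of all tested genes (5 at an unadjusted p of 0.05, against 18.8%). Bcl2, a survival gene, averaged 21.5 ± 1.08 FPKM in Fosl2 Tg, 9.83 ± 0.172 in the labelled Fosl2 Ko libraries and 13.8 ± 2.49 in Control (SD, n = 3 each), and Bcl2l11, which encodes the death-promoting BIM, averaged 33.4 ± 1.99, 22.8 ± 0.990 and 22.8 ± 1.49. Both rose in Fosl2 Tg. Bcl2l1, which encodes BCL-XL, averaged 65.5 ± 11.7 in Fosl2 Tg, 97.7 ± 2.33 in the labelled Fosl2 Ko libraries and 106 ± 4.83 in Control, and Pmaip1, which encodes NOXA, averaged 1.11 ± 0.148, 2.35 ± 0.429 and 2.07 ± 0.0960. Both fell in Fosl2 Tg. The 4 lower genes became 2 without Control library 2 or 3, and the 0 in the labelled Fosl2 Ko libraries became 1 higher and 2 lower without Fosl2 Tg library 1 and 1 lower without Control library 3.

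Of 7 tested genes of the ATG8 family and GSK3, 1 rose and 1 fell in Fosl2 Tg against Control. Over all tested genes 8.53% rose and 15.1% fell. In the labelled Fosl2 Ko libraries 1 rose, against 2.14% of all tested genes. In Fosl2 Tg 2 were higher and 1 lower than in labelled Fosl2 Ko, against 17.4% and 20.7%. Counts from 7 genes cannot be set apart from these shares. Gabarapl1, an autophagosome protein, averaged 7.82 ± 0.578 FPKM in Fosl2 Tg, 16.9 ± 0.647 in the labelled Fosl2 Ko libraries and 13.8 ± 0.701 in Control (SD, n = 3 each). It fell in Fosl2 Tg by 0.75 ± 0.06 on the log2 scale (SE, limma adjusted p = 0.000365), and its rise in the labelled Fosl2 Ko libraries (limma adjusted p = 0.0447) was lost when any of 7 libraries was left out. Gabarap, of the same family, averaged 90.3 ± 3.42 in Fosl2 Tg, 77.1 ± 0.557 in the labelled Fosl2 Ko libraries and 78.5 ± 4.85 in Control, and its rise in Fosl2 Tg was lost when any of 6 libraries was left out. Gabarapl2, whose protein Gimap6 binds, averaged 59.63 ± 0.837 in Fosl2 Tg, 57.75 ± 3.72 in the labelled Fosl2 Ko libraries and 60.09 ± 5.1 in Control. Neither Gabarapl2 nor the GSK3 genes Gsk3a and Gsk3b were called in any comparison. The 2 genes higher in Fosl2 Tg than in labelled Fosl2 Ko became 1 without labelled Fosl2 Ko library 2 and 0 without library 3. Of 12 tested immunity-related and guanylate-binding GTPases, 1 rose in Fosl2 Tg against Control, near the 8.53% of all tested genes. These genes are interferon-induced and belong to other GTPase families. In the labelled Fosl2 Ko libraries 1 rose, against 2.14% of all tested genes. In Fosl2 Tg 1 was higher and 5 lower than in labelled Fosl2 Ko, against 17.4% and 20.7%. Gbp3 averaged 5.17 ± 0.710 FPKM in Fosl2 Tg and 2.49 ± 0.263 in Control, and rose (limma adjusted p = 0.00209). Irgm1 averaged 16.1 ± 1.01 in the labelled Fosl2 Ko libraries and 9.97 ± 0.602 in Control, and its rise was lost when any of 7 libraries was left out. Without Fosl2 Tg library 1, this list had 3 higher and 5 lower genes in Fosl2 Tg and 6 higher genes in the labelled Fosl2 Ko libraries, each against Control, and 2 higher in Fosl2 Tg than in labelled Fosl2 Ko.

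Markers of cell types were read to see what the sorted cells held. The summed FPKM of the 8 CD4 T cell markers in the table was 1788.6 to 1880.5 in Fosl2 Tg, 1365.0 to 1431.0 in the labelled Fosl2 Ko libraries and 1534.4 to 1562.2 in Control, in the same order of groups as the Gimap genes. Cd4 itself had another order, at 165.7 ± 5.05 in Fosl2 Tg, 193.5 ± 5.25 in the labelled Fosl2 Ko libraries and 178.3 ± 11.8 in Control (SD, n = 3 each). Of these 8, 6 rose in Fosl2 Tg against Control (2 without Control library 2, and 3 without labelled Fosl2 Ko library 3) and 2, Cd2 and Lck, fell in the labelled Fosl2 Ko libraries (4 without Fosl2 Tg library 1, and 1 without any labelled Fosl2 Ko library or without Control library 2). Between Fosl2 Tg and labelled Fosl2 Ko, 6 were higher and 1, Cd4, was lower (limma adjusted p = 0.0206). That call of Cd4 was lost without Fosl2 Tg library 3 or labelled Fosl2 Ko library 1 or 3. Over all tested genes 8.53% rose in Fosl2 Tg and 2.32% fell in labelled Fosl2 Ko, each against Control. Of all tested genes, 17.4% were higher and 20.7% lower in Fosl2 Tg than in labelled Fosl2 Ko. Cd28, the costimulatory receptor that was stimulated, averaged 219 ± 11.1 in Fosl2 Tg, 134 ± 4.74 in the labelled Fosl2 Ko libraries and 152 ± 4.52 in Control (SD, n = 3 each). Of the CD8 markers, Cd8a was below 0.5 FPKM in every library, while Cd8b1 averaged 11.7 ± 1.07 in Fosl2 Tg, 6.63 ± 0.646 in the labelled Fosl2 Ko libraries and 11.8 ± 0.486 in Control. The 7 B cell markers summed to 0.578 to 0.974 in Fosl2 Tg, 1.20 to 1.52 in the labelled Fosl2 Ko libraries and 1.06 to 1.98 in Control. The 5 NK cell markers summed to at most 0.161, with Ncr1 at 0 in every library. The 7 myeloid markers in the table summed to 2.28 to 3.21 in Fosl2 Tg, 0.991 to 1.43 in the labelled Fosl2 Ko libraries and 1.51 to 1.74 in Control, with Cd14 at 0 throughout. The 7 endothelial and stromal markers summed to 19.3 to 33.1 in Fosl2 Tg, 10.6 to 11.2 in the labelled Fosl2 Ko libraries and 12.9 to 18.8 in Control. Nearly all of this was Pecam1, which naive T cells also express, while Col3a1 and Tie1 were at 0 and Cdh5 and Kdr at or near 0. The single red blood cell marker usable by name, of 5 listed, reached at most 0.0946. Summed myeloid markers and Pecam1 had the same order of groups as the Gimap genes. Within Fosl2 Tg the myeloid sum was highest in library 3, as was Cd68, at 1.78, 1.66 and 2.70 FPKM in libraries 1 to 3. Itgam (1.06, 0.587 and 0.502) and Pecam1 (33.0, 20.2 and 19.3) were highest in library 1, as the Gimap genes were. Most of the myeloid sum was Cd68 and Itgam. Cd68, the only one tested, was not called in either comparison with Control (limma adjusted p = 0.133 and 0.442). It was higher in Fosl2 Tg than in labelled Fosl2 Ko (limma adjusted p = 0.0203), a call lost without labelled Fosl2 Ko library 2 or 3. The part of these markers in the Gimap differences was not tested.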

How the data were processed

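Per the labels' protocols, poly-A RNA went into directional RNA-seq libraries. The submitters' processing notes list TopHat, Cufflinks, Cuffdiff and mm10; for their versions, settings and gene models the sources used here give nothing. FPKM per gene for 9 libraries, with column names as in the file headers, were taken as the authors deposited them (0 columns unmatched). Another deposited table holds 4122 entries from the authors' own comparisons, with group FPKM, log2 ratios, a p-value and a q-value for each comparison, per the file headers, normalized separately and used for no test. Its fold for Fosl2 Tg and Fosl2 Ko is Ko over Tg, and it holds only genes significant in a comparison.

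FPKM are not counts, so log2(FPKM + 1) was tested in limma 3.58.1 (R 4.3.3), with all 9 libraries in 1 fit, a variance trend, no covariate and 6 residual degrees of freedom. The filter of a mean FPKM of 1 or more left 10340 genes, and p-values were Benjamini-Hochberg adjusted over them, with 0.05 as the threshold. Log2 differences on this scale understate changes of low genes. Small RNA genes made up 21.1% to 38.0% of a library's total FPKM. Depth came from the step size of low FPKM values of 528 genes and covers counting error only. An entry with no content (1) was not analysed, and 27 symbols had become dates. The fit was tested on simulated data with independent noise of the same spread in every group. Those data held no outlying library such as Fosl2 Tg library 1, so the test cannot show how such a library affects the calls.

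The members and lists were chosen with earlier results of these data known. Genes named are all members, the tested neighbours, up to 4 called genes per list and comparison with Control with the smallest adjusted p, and the 5 most similar genes. Tob2, Pecam1, Cd68, Itgam, Cd4, Irf4, Cd69, Gabarapl2, Gsk3a, Gsk3b, untested neighbours and markers near 0 were named after their values were seen. A result that this rule selected is left out of the text. Overlaps came from GENCODE M21 and promoters from RefSeq. Alternatives were a pseudocount of 0.1, no filter, median-of-ratios scaling, quantile normalization, rescaling without small RNA genes, a replicate block, a fit of only the groups compared, and leaving out each of 9 libraries.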

Additional observations from a re-analysis of the deposited data

How the results depend on the processing

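Every Gimap difference kept its direction under all 16 alternatives in all 3 comparisons. Against labelled Fosl2 Ko, all 8 members stayed called in Fosl2 Tg under each of them. Of 128 member results per comparison, 100 stayed on their side of the threshold in Fosl2 Tg against Control (17 calls were lost and 11 gained), and 106 did in labelled Fosl2 Ko against Control (12 lost, 10 gained). The 5 members called in Fosl2 Tg against Control became 3 with no filter on low values, 1 (Gimap6) when only the 2 groups were fitted, and 2 to 7 when 1 library was left out. The 1 member called in labelled Fosl2 Ko against Control became 0 with median-of-ratios scaling, 0 with quantile normalization, 0 after rescaling without small RNA genes (limma, 4 at an unadjusted p of 0.05 in each), 5 when only the 2 groups were fitted, and 0 to 5 when 1 library was left out. In labelled Fosl2 Ko against Control, fitting only these groups or leaving out Fosl2 Tg library 1 takes that library's spread out of the shared estimate. The cause of the changes in these counts was not tested.

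Over all genes, 2440 were called in Fosl2 Tg against Control (861 with only the 2 groups, 903 to 2534 leaving out 1 library), 461 in labelled Fosl2 Ko against Control (888, and 169 to 1249) and 3943 in Fosl2 Tg against labelled Fosl2 Ko (3296, and 2174 to 4113). Of the calls in Fosl2 Tg against Control, 882 were higher and 1558 lower, against 1101 and 1265 with median-of-ratios scaling, 1062 and 1271 with quantile normalization and 1426 and 1055 after rescaling without small RNA genes. In labelled Fosl2 Ko against Control, 221 were higher and 240 lower, against 285 and 171 after that rescaling. The Fosl2 difference between Fosl2 Tg and labelled Fosl2 Ko (0.42, limma adjusted p = 0.0594) passed with the replicate block (0.419, limma adjusted p = 0.0324), and was 0.256 to 0.584 leaving out 1 library.

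Libraries of the groups share replicate numbers. Deviations from the group mean had an r of -0.126 to 0.098 over 9 pairs of same-numbered libraries. With 3 libraries a group this check cannot exclude a shared animal or batch, and no label states what the numbers mean. With the replicate block, 7 members were called in Fosl2 Tg against Control, 1 in labelled Fosl2 Ko against Control (Gimap6 in place of Gimap1) and 8 in Fosl2 Tg against labelled Fosl2 Ko, and over all genes 3259, 491 and 4589 were called. Depth limits Gimap7 most, which rests on 117 to 753 estimated fragments per library.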
